A study of Mus musculus with 4 samples.

Results

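The genes described here are 10 components of fibroblast growth factor (FGF) signalling through the kinase ERK: the ligand Fgf4, the receptors Fgfr1 and Fgfr2, the feedback inhibitors Spry2, Spry4, Spred1, Dusp4 and Dusp6, and the transcription factors Etv4 and Etv5. They were taken by symbol from a table of 55353 genes, and all 10 were among the 17482 genes with enough counts to be tested. RNA came from mouse E14 embryonic stem cells, strain given as 12910la, cultured on gelatin in serum medium with LIF. Of the 4 libraries, 2 are of wild-type cells, called controls, and 2 of cells in which Ssrp1, which encodes a subunit of the histone chaperone FACT, had been targeted with Cas9 and a guide RNA. The labels do not give the number of knockout clones or whether cultures were separate within a group, so p-values measure only the spread among these 4 samples, which may be technical. The treatment note also describes an empty vector with puromycin selection for a Usp7 knockdown, and it is not stated whether these controls received it.

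In this pathway a secreted FGF, held by heparan sulfate, joins receptor tyrosine kinases into pairs. Adaptor proteins then switch on RAS, and a chain of RAF, MEK and ERK kinases carries the signal to the nucleus, where it raises the transcription of Etv4, Etv5 and of the pathway's own inhibitors. Mouse embryonic stem cells make FGF4 themselves, and this autocrine signal is known for readying them to leave the undifferentiated state. In the early embryo FGF4 from the epiblast also drives neighbouring cells toward primitive endoderm, a lineage in which Fgfr2 is prominent.

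Total counts per library ranged from 22611434 to 25344190, and the 10 genes had between 261 and 11990 counts in a library. Ssrp1 itself was not lower: it stood at 282 and 306 normalised CPM (counts after scaling between libraries) in the controls, against 305 and 327 CPM in the others, which are therefore called the libraries labelled KO. Since a short deletion need not lower the RNA, this level does not check the labels. Ribosomal-RNA-like transcripts took 9.72% to 10.3% of counts in the controls, against 4.64% to 6.30% in those labelled KO; the fold changes with these genes left out are among the alternatives below. Of 9 undifferentiated-cell markers, 7 were called lower and 1, Nanog, higher, beside 17.2% lower and 16.5% higher of all genes tested. The markers had summed levels of 5520 to 5655 CPM in the controls, against 4253 to 4371 CPM in those labelled KO. Of the 8 fibroblast and feeder markers Postn, Dcn and Lum had no count in any library, and Col1a2 and Col3a1 had at most 9 counts. The others were counted in every library: Thy1 with 305 to 398 counts, Pdgfrb with 358 to 520 and Col1a1 with 42 to 58. The whole list summed to 37.8 and 39.2 CPM in the controls, against 31.6 and 34.6 CPM in those labelled KO.

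The ligand gene Fgf4 fell and the receptor gene Fgfr2 rose, by the largest amounts of the 10. edgeR's quasi-likelihood test (2-sided, Benjamini-Hochberg adjustment over all genes tested) also called 2 feedback inhibitors lower, Spry4 and Dusp6, by smaller amounts. The other 6 genes, among them both Etv factors and the main receptor gene Fgfr1, were not called. In all, 4 of 10 genes were called at an adjusted p under 0.05, where 33.6% of all genes tested were called. By direction 1 was higher and 3 were lower, against 16.5% higher and 17.2% lower of all genes tested. The share of called members was thus near the background, and the description rests on which genes moved and by how much. The median absolute log2 fold change was 0.14 over the 10 genes and 0.28 over all genes tested. These medians cover unlike levels: the 10 genes were all above 11 CPM, while of the 17482 genes tested 11033 reached 5 CPM in 2 libraries. The 2 controls and the 2 libraries labelled KO did not overlap for 7 of the 10 genes, where 66.6% of all genes tested did not overlap. With scaling by library size alone, or without knockout replicate 1, 2 members were called higher.

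**Figure D1:**
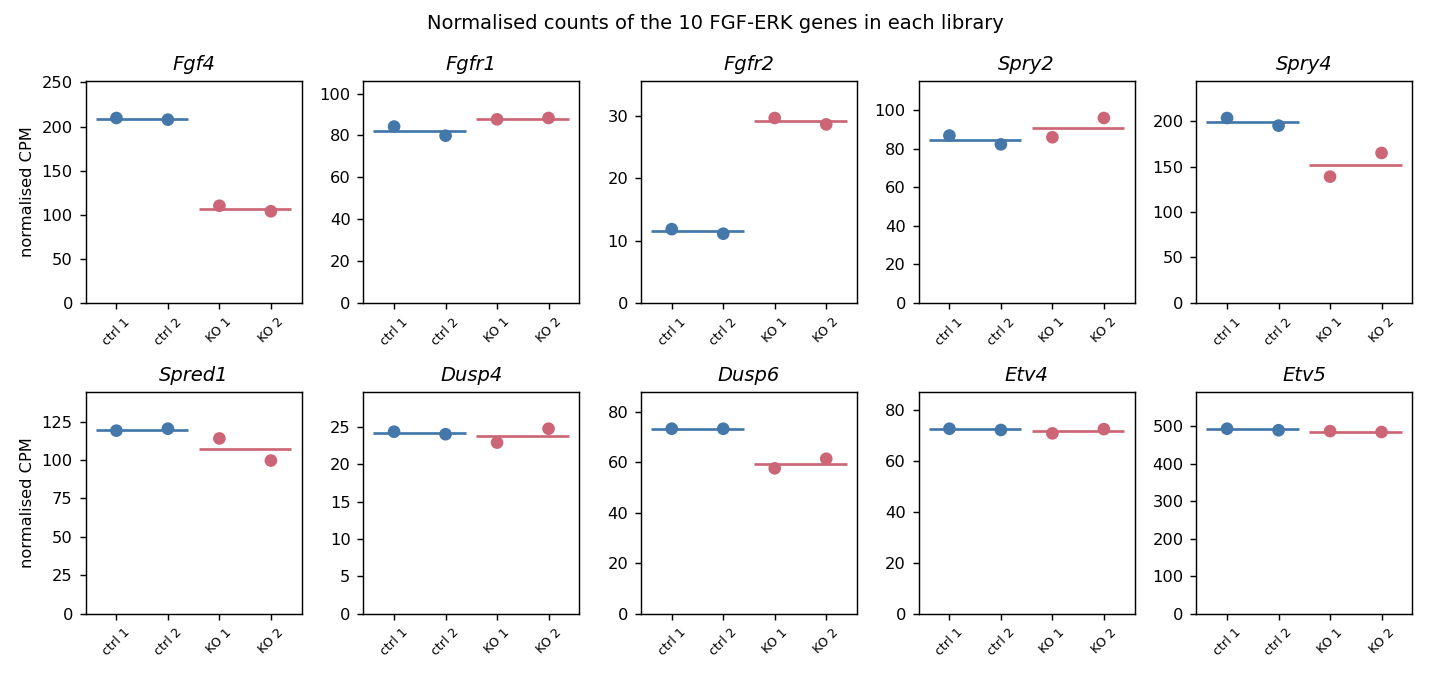
Normalised CPM (vertical axis, from 0, a separate scale for each gene) of the 10 genes in the 2 control libraries (ctrl, blue) and the 2 libraries labelled KO (KO, red); points are libraries and lines are group means. Fgf4 falls from about 209 to 107 CPM, Fgfr2 rises from 11.5 to 29.2 CPM, and the points of Etv4 and Etv5 lie nearly level.

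**Figure D2:**
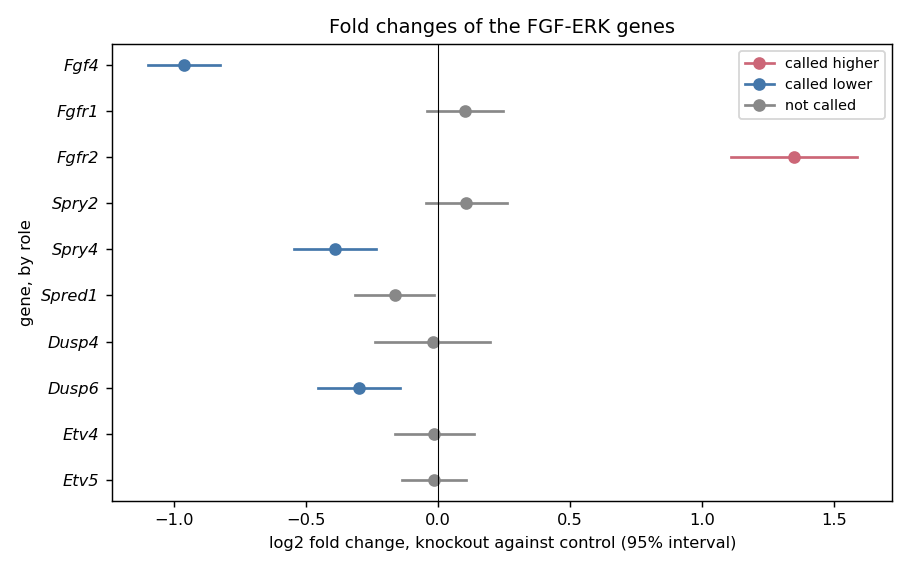
Log2 fold change of each gene in the libraries labelled KO against the controls (horizontal axis), with its 95% interval from the edgeR fit; genes are ordered by role. Fgf4 at -0.96 and Fgfr2 at 1.35 stand apart, Spry4 and Dusp6 lie at -0.39 and -0.30, and the intervals of Etv4, Etv5 and Dusp4 include 0.

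Fgf4 (ENSMUSG00000050917.5, chromosome 7, 144847367 to 144865243, plus strand, GENCODE M21 on mm10) encodes the FGF that embryonic stem cells secrete. It was at 209.7 and 208 CPM in the controls, against 110.1 and 104 CPM in those labelled KO. The 2 libraries of each group lay close together and the groups were far apart. The group means were 209 ± 1.32 and 107 ± 4.44 CPM (SD, n = 2), a log2 fold change of -0.96 ± 0.07 (SE; edgeR adjusted p 8.7e-10), or a level 48.8% lower with a 95% interval from 43.7% to 53.4% lower. Its change ranked 783 from the lowest among the 17482 genes tested. The call held under all 11 alternative settings, with log2 fold changes from -1.01 to -0.88. In these bulk samples fewer cells of a type and less RNA per cell cannot be told apart.

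Fgf4 is a textbook target of SOX2 and OCT4 (the product of Pou5f1), which bind a paired element in its last exon. The element is shown because Fgf4 is the member with the best-known link to these factors, whose own transcripts were measured in the same libraries. A search of the M21 transcripts for CTTTGTT followed within 5 bases by ATGCTAAT, on the transcript's strand, located it. These letters are those of the known Fgf4 element, so the match in Fgf4 follows from their choice; of all 21877 coding genes searched, 2 (0.00914%) hold them. The match lies at chr7:144864394-144864411 on the plus strand of mm10, in exon 3 of 3, within the annotated UTR; capitals mark the SOX and OCT letters:
Fgf4 paired element: CTTTGTTtggATGCTAAT
Pou5f1 was at 408 ± 10.4 CPM in the controls and 316 ± 8.54 CPM in the libraries labelled KO (log2 fold change -0.37 ± 0.06, edgeR adjusted p 9.3e-05), a smaller fall than that of Fgf4. Sox2 was at 337 ± 5.00 and 291 ± 42.7 CPM (-0.21 ± 0.08, adjusted p 0.041), and that call was lost in 6 of 11 alternatives, among them without knockout replicate 2 (log2 fold change -0.07) and without either control. Without knockout replicate 1 the value of Sox2 was -0.37. Their part in the level of Fgf4 was not tested.

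The RefSeq window from 250 bases before to 50 after the start site was held for 6 of the 10 genes: Fgf4, Fgfr2, Spry2, Spred1, Dusp6 and Etv5 (GRCm38.p6, the build of mm10). Windows were searched on both strands for the octamer of Capicua, a repressor that ERK signalling removes from DNA (TGAATGAA, TGAATGGA, TCAATGAA or TCAATGGA), the GC box GGGCGG, the CCAAT box CCAAT, the ETS letters CCGGAAGT and the TATA letters TATAAA. Of 32851 windows in the table, 3.84% hold a Capicua octamer, 35.7% a GC box, 37.4% CCAAT, 3.89% the ETS letters and 13.6% the TATA letters. Octamers were found in the windows of Dusp6, with 2, and Spry2, with 1. These windows are printed with that of Fgf4, the member that fell most, which holds 2 GC boxes and 1 CCAAT box on the opposite strand and no octamer. Capitals mark the matches, and each runs 5′ to 3′ on its gene's strand:
Fgf4 (chr7:144861136-144861435, plus strand): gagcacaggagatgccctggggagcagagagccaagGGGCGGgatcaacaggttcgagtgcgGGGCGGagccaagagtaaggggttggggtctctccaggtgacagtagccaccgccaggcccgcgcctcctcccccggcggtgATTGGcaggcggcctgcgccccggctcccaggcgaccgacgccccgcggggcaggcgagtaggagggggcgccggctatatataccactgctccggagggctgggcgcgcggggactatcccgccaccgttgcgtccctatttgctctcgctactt
Dusp6 (chr10:99262981-99263280, plus strand): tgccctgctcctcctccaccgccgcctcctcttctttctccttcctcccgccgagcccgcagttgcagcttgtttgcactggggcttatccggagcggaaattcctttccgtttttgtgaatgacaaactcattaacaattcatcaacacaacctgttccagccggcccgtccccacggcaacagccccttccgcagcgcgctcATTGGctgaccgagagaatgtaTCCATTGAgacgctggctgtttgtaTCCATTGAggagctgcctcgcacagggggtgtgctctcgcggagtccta
Spry2 (chr14:105896770-105897069, minus strand): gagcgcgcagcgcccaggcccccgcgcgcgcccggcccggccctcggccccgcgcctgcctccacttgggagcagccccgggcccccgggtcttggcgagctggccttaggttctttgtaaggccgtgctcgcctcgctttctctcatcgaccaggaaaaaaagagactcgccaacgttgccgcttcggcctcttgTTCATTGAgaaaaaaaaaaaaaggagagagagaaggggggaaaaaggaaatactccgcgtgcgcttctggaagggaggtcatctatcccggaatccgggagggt
In Dusp6 the octamers read TCCATTGA, on the opposite strand, and begin 24 bases before and at base 2 from the start site; its CCAAT box lies just upstream of them. In Spry2 the octamer reads TTCATTGA and begins 54 bases before the start. Of these 2 genes Dusp6 fell and Spry2 was not called. A match describes letters only and does not show that a factor binds.

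Among the receptors, Fgfr2 (ENSMUSG00000030849.18, chromosome 7, 130162451 to 133123350, minus strand) encodes a receptor tyrosine kinase found in primitive endoderm and trophoblast. It was at 11.8 and 11.1 CPM in the controls, against 29.7 and 28.7 CPM in those labelled KO. Every library labelled KO was above both controls by a wide margin. The means were 11.5 ± 0.514 and 29.2 ± 0.728 CPM (SD, n = 2), a log2 fold change of 1.35 ± 0.11 (SE; edgeR adjusted p 2.4e-08), or 2.54-fold with a 95% interval from 2.16 to 3.00. The value lay at percentile 95.9 of all genes tested and held in all 11 alternatives, from 1.30 to 1.43. The M21 model of Fgfr2 reaches far beyond RefSeq's (130162451 to 130266808) and shares 314 exonic bases with Ctbp2 on the same strand. Ctbp2, which encodes a transcriptional corepressor, was at 206 and 249 CPM (fold change on the log2 scale 0.27), and whether reads from the shared bases were counted for Fgfr2 was not tested.

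Markers of lineages that carry Fgfr2 were read in the same libraries. Of 13 primitive endoderm markers tested, 10 were called higher, beside 16.5% of all genes tested. The list was chosen with earlier results of these data known, so this count is a description and no independent evidence. The summed level of all 14 listed was 352 to 358 CPM in the controls, against 495 to 496 CPM in those labelled KO. Lamb1, Sparc and Lama1, already at 125, 95.6 and 95.9 CPM in the controls, made up most of the control sum. In the libraries labelled KO they were at 178, 123 and 92.5 CPM. No listed marker was at 0 in all libraries. Of the defining factors, Gata4 and Gata6 rose from 2.24 ± 0.105 to 8.39 ± 1.33 CPM and from 0.724 ± 0.190 to 4.33 ± 0.354 CPM (log2 fold changes 1.90 and 2.56, edgeR adjusted p 9.5e-07 and 4.3e-06). Sox17, with 5 and 4 counts in the controls against 15 and 12, was not called (edgeR adjusted p 0.078). Lama1 and Amn were not called either, and Foxa2 had too few counts to be tested. Of 7 trophoblast markers tested, 2 were called higher, Tfap2c and Krt18, and the other 5 were not called. The whole list had a summed level of 109 to 110 CPM in the controls, against 155 to 161 CPM in those labelled KO. Tfap2c alone went from 52.7 ± 1.56 to 92.7 ± 2.37 CPM, most of that difference. The trophoblast factors Cdx2 and Elf5 had no count in the controls and 1 to 3 counts in each library labelled KO. The part of primitive endoderm or trophoblast cells in the level of Fgfr2 was not tested. Higher marker sums were not particular to these 2 lists. The primed epiblast list went from 189 and 199 CPM in the controls to 323 and 362 CPM in those labelled KO. Dnmt3b alone went from 98.1 ± 7.64 to 245 ± 17.7 CPM, most of that difference. Of the 7 tested genes of this list, 4 were called higher (Dnmt3b, Otx2, Lef1 and Zic2) and 1 lower (Sox4). Pou3f1 and Fst were not called, and Fgf5 and T had too few counts to be tested.

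Fgfr1 (ENSMUSG00000031565.18, chromosome 8, 25513654 to 25575718, plus strand), the main FGF receptor gene of these cells, was at 84.2 and 79.8 CPM in the controls, against 87.7 and 88.3 CPM in those labelled KO. The groups did not overlap, but they lay close together. Its log2 fold change was 0.10 ± 0.07 (edgeR adjusted p 0.28), with a 95% interval from a level 2.99% lower to one 18.7% higher. With scaling by library size alone the value was 0.18 and passed the threshold (adjusted p 0.047). An antisense gene in the annotation, Gm16159, shares 164 exonic bases with it and had no count in any library.

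Both receptor genes can also be read inside each library, where scaling plays no part; this restates the 2 fold changes above and is no separate evidence. Per kilobase of exon, Fgfr1 was 7.44 and 7.52 times as abundant as Fgfr2 in the controls, against 3.09 and 3.22 times as abundant in those labelled KO. The log2 ratio of Fgfr2 to Fgfr1 rose by 1.25, from -2.90 and -2.91 to -1.63 and -1.69. An exact 2-sided permutation test gave p = 0.333, the smallest that 2 against 2 samples allow. With each gene's longest transcript as its length the control ratios were 6.25 and 6.32 and the others 2.59 and 2.71, and the difference was unchanged, since length cancels from it. Of the summed level per length of the 4 signalling receptors, Fgfr1 made up 68.8% and 69.8% in the controls, against 65.7% and 66.6% in those labelled KO. The share of Fgfr2 went from 9.16% and 9.37% to 20.7% and 21.3%, and that of Fgfr4 from 18.6% and 19.2% to 11.8% and 12.3%. On this scale Fgfr2 was below Fgfr4 in the controls and above it in the libraries labelled KO, but the control order rests on the length used: with longest transcripts Fgfr2 was at 2.67 and 2.51 and Fgfr4 at 2.43 and 2.41 CPM per kilobase in the controls. The shares above rest on the length too. In the controls Fgfr1 was at 16.7 and 15.8 CPM per kilobase with longest transcripts, against 8.53 and 8.09 with the union of exons. Fgfr4 was at 2.28 and 2.26 with the union of exons and changed little, so its share is smaller with longest transcripts. Fgfr1 was first in all 4 libraries with either length.

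**Figure D3:**
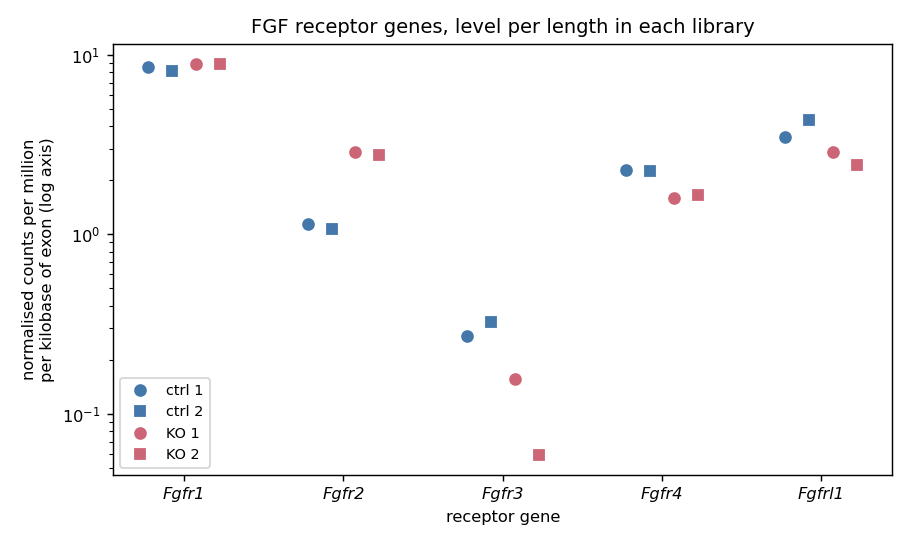
Level of 5 FGF receptor genes per kilobase of exon (vertical axis, log scale, normalised CPM per kilobase) in each control library (ctrl, blue) and each library labelled KO (KO, red). Fgfr1 lies between 8.09 and 8.94 in all 4 libraries, Fgfr2 goes from 1.08 and 1.15 to 2.78 and 2.87, and Fgfr3, Fgfr4 and Fgfrl1 are lower in the libraries labelled KO.

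The feedback inhibitors act at different steps, and they did not move alike. Sprouty proteins, encoded by Spry2 and Spry4, block signalling between the receptor and RAF, SPRED1 brings the RAS-inactivating protein neurofibromin to the membrane, and DUSP4 and DUSP6 remove phosphate from ERK, in the nucleus and in the cytoplasm. Of the 5 genes, 2 were called lower and the other 3 were not called. Of all genes tested, 17.2% were called lower and 33.6% in either direction. The log2 fold changes of the 5 inhibitor genes ran from -0.39 to 0.11, with a median of -0.16.

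Spry4 (ENSMUSG00000024427.7, chromosome 18, 38586247 to 38601415, minus strand) was at 203.5 and 195 CPM in the controls, against 139 and 165 CPM in those labelled KO. Both of the latter were below both controls, but they differed from each other more than the controls did. The means were 199 ± 5.95 and 152 ± 18.4 CPM, a log2 fold change of -0.39 ± 0.07 (edgeR adjusted p 3.9e-04), or 23.7% lower with a 95% interval from 15.1% to 31.5% lower. Without knockout replicate 1 or replicate 2 the value ran from -0.27 to -0.52, and every alternative kept the call.

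Dusp6 (ENSMUSG00000019960.8, chromosome 10, 99263231 to 99267489, plus strand), a widely used readout of ERK activity, was at 73.4 CPM in both controls, against 57.7 and 61.5 CPM in those labelled KO. The groups were separate. Its log2 fold change was -0.30 ± 0.07 (edgeR adjusted p 0.0036), or 18.8% lower with a 95% interval from 9.63% to 27.1% lower. The call held in all 11 alternatives, with a highest adjusted p of 0.038. Dusp4 (ENSMUSG00000031530.6, chromosome 8, 34807297 to 34819894, plus strand) encodes the nuclear phosphatase and was at 24.4 and 24.0 CPM against 22.9 and 24.8 CPM. Its groups overlapped, with a log2 fold change of -0.02 ± 0.10 (adjusted p 0.90) and a 95% interval from 15.3% lower to 14.7% higher. The sign of Dusp4 turned to 0.06 with scaling by library size alone and to 0.03 without knockout replicate 1.

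Spry2 (ENSMUSG00000022114.5, chromosome 14, 105891947 to 105896819, minus strand) was at 86.9 and 82.3 CPM in the controls, against 86.0 and 96.0 CPM in those labelled KO. The groups overlapped, and the log2 fold change was 0.11 ± 0.07 (edgeR adjusted p 0.29, 95% interval from 3.26% lower to 19.7% higher). Spred1 (ENSMUSG00000027351.14, chromosome 2, 117121374 to 117182279, plus strand) was at 119 and 120.4 CPM against 114 and 99.7 CPM. The library labelled KO replicate 2 was the lowest of the 4, and the log2 fold change was -0.16 ± 0.07 (adjusted p 0.086; the interval of this gene alone, from 0.973% to 19.6% lower, is not adjusted for the number of genes). Both values depended on each knockout library: without replicate 1 Spry2 was at 0.18 and Spred1 at -0.26. Without knockout replicate 2 they were at 0.02 and -0.07.

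Etv5 (ENSMUSG00000013089.15, chromosome 16, 22381309 to 22439719, minus strand) and Etv4 (ENSMUSG00000017724.14, chromosome 11, 101769742 to 101785371, minus strand) encode related ETS factors that are transcribed in response to FGF. Etv5 was at 494 and 489.7 CPM in the controls, against 487 and 485 CPM in those labelled KO. Its log2 fold change was -0.02 ± 0.06 (edgeR adjusted p 0.86), with a 95% interval from 9.17% lower to 7.58% higher. Etv4 was at 72.5 and 72.0 CPM against 70.7 and 72.3 CPM. The groups of Etv4 overlapped, with a log2 fold change of -0.01 ± 0.07 (adjusted p 0.89) and an interval from 10.7% lower to 9.74% higher. Neither interval includes a change of the size seen for Fgf4, whose own interval ends at 43.7% lower. With scaling by library size alone both had a value of 0.07, and neither was called in any of the 11 alternatives.

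Compared per kilobase of exon, the levels of the 10 genes kept much of their order. In the controls Etv5 was the most abundant at 120 ± 0.702 CPM per kilobase (SD, n = 2), followed by Fgf4 at 65.3 ± 0.415, Spry4 at 41.9 ± 1.25 and Spry2 at 40.5 ± 1.55. The last 2 overlapped between libraries. Dusp6 and Etv4 came next at 23.4 ± 0.00482 and 23.3 ± 0.115, then Spred1 at 17.7 ± 0.133, Dusp4 at 8.83 ± 0.0866, Fgfr1 at 8.31 ± 0.312 and Fgfr2 at 1.11 ± 0.0497. In the libraries labelled KO Etv5 was at 118 ± 0.419 and Spry2, at 43.6 ± 3.39, stood above Fgf4 at 33.5 ± 1.39. Fgf4 there overlapped with Spry4 at 32.0 ± 3.88. Etv4 was at 23.0 ± 0.376, Dusp6 at 19.0 ± 0.861, Spred1 at 15.8 ± 1.5, Fgfr1 at 8.91 ± 0.0456, Dusp4 at 8.69 ± 0.481 and Fgfr2, still last, at 2.83 ± 0.0705. Fgfr1 and Dusp4 overlapped. Length was taken as the union of annotated exons, so genes with many transcript models, such as the receptors, may read low on this scale.

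The rest of the pathway was followed in 7 lists of 94 genes, of which 77 were tested. Of these 20 were higher and 19 lower, 50.6% of those tested, beside 33.6% of all genes tested. The lists were chosen with earlier results of these data known, so the comparison is a description only. The median log2 fold change of the 77 genes was 0.08. When genes needed 5 CPM in 2 libraries, 55.4% of the pathway genes tested were called, beside 43.1% of all genes tested. Without control replicate 1, 13 were higher and 12 lower (31.2% of those tested, beside 21.8% of all genes tested), and without control replicate 2, 12 were higher and 10 lower (27.8%, beside 22.4%). Calls thus fell in number over all genes as well as in these lists. With scaling by library size alone the lower genes numbered 11, and among all genes called the share of higher ones was 63.7% in place of 49%.

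**Figure D4:**
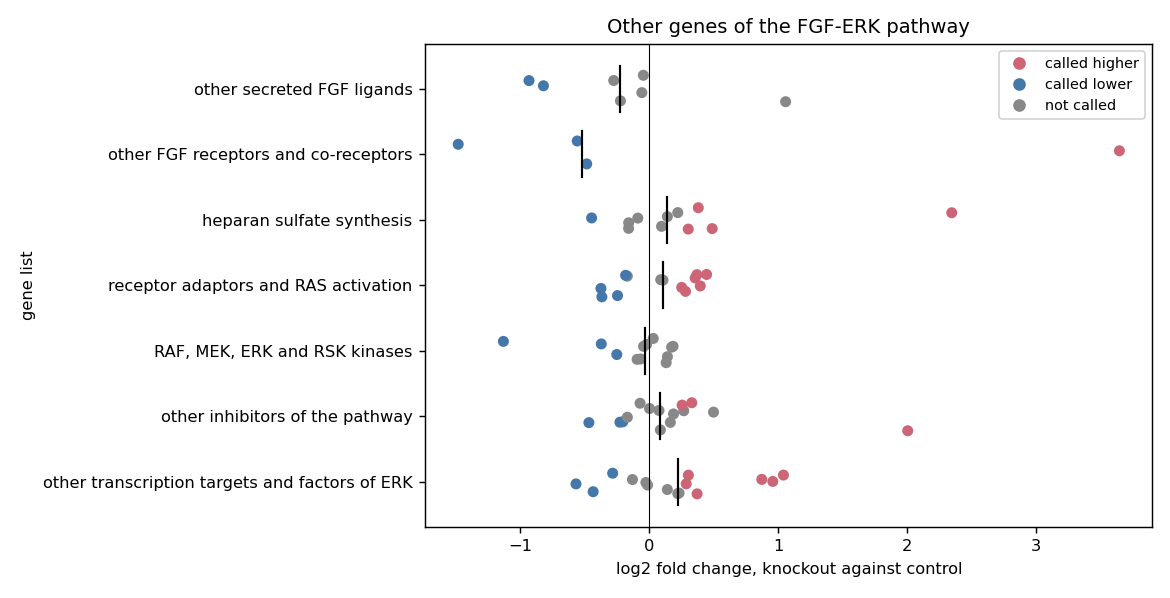
Log2 fold changes (horizontal axis) of 77 further pathway genes in 7 lists, the libraries labelled KO against the controls; each point is a gene, coloured by its edgeR call, and black bars are list medians. Calls in both directions are seen among the adaptors, inhibitors and targets, and the farthest point to the right is Klb at 3.64.

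Among other secreted ligands, 7 of 17 genes were tested and 2 fell, Fgf15 and Fgf1. Fgf15, a secreted FGF of the endocrine subfamily, went from 13.3 ± 1.30 to 6.96 ± 0.268 CPM (fold change on the log2 scale -0.93 ± 0.15, edgeR adjusted p 6.8e-05), and Fgf1 from 10.3 ± 0.301 to 5.85 ± 0.466 CPM (-0.82 ± 0.16, adjusted p 5.3e-04). Fgf4 was thus not the sole ligand gene called lower. Of the receptors and co-receptors, 4 of 5 were tested and all 4 were called. Klb, which encodes the co-receptor beta-Klotho, rose from 0.145 ± 0.141 to 1.93 ± 0.414 CPM (3.64 ± 0.59, adjusted p 7.5e-05), with 1 and 6 control counts against 52 and 39. Without control replicate 1 its value was 2.94, and without control replicate 2 a single control count is left, too few for a fold. Fgfr3 fell from 2.14 ± 0.267 to 0.766 ± 0.489 CPM (-1.48 ± 0.43, adjusted p 0.011), and this call was lost without knockout replicate 2 (-0.94) and without control replicate 2 (-1.35). Without knockout replicate 1 the value of Fgfr3 was -2.33. Fgfrl1, a receptor without a kinase domain, fell from 10.9 ± 1.60 to 7.40 ± 0.903 CPM (-0.56 ± 0.16, adjusted p 0.011), a call lost without control replicate 2 (adjusted p 0.159). Fgfr4, named after its values were seen, was at 8.04 ± 0.0470 and 5.74 ± 0.138 CPM (-0.48 ± 0.17, adjusted p 0.034), and 6 of 11 alternatives lost that call.

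In the heparan sulfate list, whose enzymes build or trim the sugar that holds FGF at the cell surface, 4 of 11 tested genes rose and 1 fell. The 6-O-sulfotransferase gene Hs6st2 rose from 0.751 ± 0.0357 to 3.84 ± 0.318 CPM (2.34 ± 0.33, edgeR adjusted p 1.4e-05). The 2-O-sulfotransferase gene Hs2st1 rose from 42.3 ± 2.16 to 59.4 ± 6.24 CPM and Sulf1, whose product removes sulfate, from 37.7 ± 0.753 to 49.1 ± 5.26 CPM. These 3 calls held in every alternative in which the gene was tested. Of 13 adaptors and RAS activators, 6 rose and 4 fell. Plcg1, a phospholipase gene, fell from 190.4 ± 1.95 to 147 ± 2.42 CPM (-0.37, adjusted p 1.2e-04). Ptpn11, which encodes the phosphatase SHP2 needed for RAS activation, rose from 70.2 ± 0.310 to 92.4 ± 2.18 CPM (0.40 ± 0.07, adjusted p 1.8e-04).

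Of 12 RAF, MEK, ERK and RSK kinase genes, 3 were called lower and the other 9 were not called. Rps6ka2, which encodes an RSK kinase activated by ERK, fell from 83.6 ± 3.80 to 38.2 ± 1.5 CPM (-1.13 ± 0.08, adjusted p 1.3e-09 by edgeR), and Mapk3, the gene of ERK1, from 153 ± 1.32 to 118 ± 2.61 CPM (-0.37 ± 0.06, adjusted p 1.6e-04). Araf was at 49.4 ± 4.08 and 41.5 ± 1.84 CPM (-0.25 ± 0.09, adjusted p 0.031), and 4 alternatives lost that call. Among 15 further inhibitors tested, 3 rose and 3 fell. Dusp1, a phosphatase gene, fell from 40.7 ± 1.49 to 29.5 ± 0.108 CPM (-0.47 ± 0.09, adjusted p 4.6e-04). Its relative Dusp9 rose from 67.8 ± 2.56 to 85.2 ± 6.27 CPM (0.33 ± 0.08, adjusted p 0.0020), a call lost without control replicate 1 (adjusted p 0.057). Rasa1, a RAS-inactivating protein's gene, rose from 61.8 ± 0.508 to 73.8 ± 3.81 CPM (0.26 ± 0.07, adjusted p 0.011), and was not called without either control.

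Other transcriptional targets and factors of ERK also went both ways, with 6 higher and 3 lower of 15 tested. Ier3, an immediate early gene, rose from 9.10 ± 0.938 to 17.7 ± 0.553 CPM (0.96 ± 0.13, adjusted p 1.5e-05 by edgeR) and the growth regulator gene Myc from 7.37 ± 0.0281 to 13.5 ± 1.06 CPM (0.87 ± 0.15, adjusted p 1.0e-04). The ephrin receptor gene Epha4 fell from 226 ± 18.9 to 167 ± 8.22 CPM (-0.43 ± 0.07, adjusted p 7.0e-05). These 3 calls held in all 11 alternatives.

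**Figure D5:**
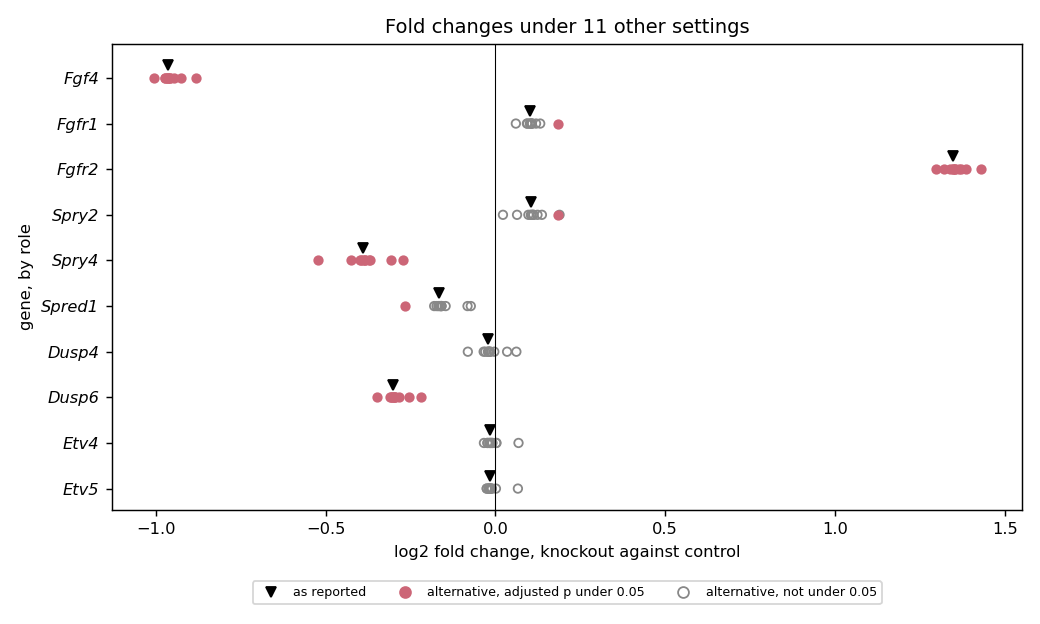
Log2 fold change of each of the 10 genes (horizontal axis) as reported (triangles) and under 11 other settings (circles, filled where the adjusted p was under 0.05). Fgf4, Fgfr2, Spry4 and Dusp6 are filled throughout, Fgfr1, Spry2 and Spred1 have 1 filled circle each, and Dusp4, Etv4 and Etv5 lie on both sides of 0.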

How the data were processed

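The submitters' processing notes list cutadapt, HISAT2, featureCounts and the mm10 build; tool versions, annotation and strand setting were not given in the sources used here. Ribosomal RNA was depleted and cDNA primed at random, per the labels' protocols. The authors deposited raw whole-number counts by gene symbol; unmapped columns numbered 0. Reads carry no molecular identifiers.

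Counts were filtered with filterByExpr (minimum count 10, total 15), scaled by TMM and tested with edgeR 4.0.16 in R 4.3.3 (quasi-likelihood F test, knockout against control, 2 residual degrees of freedom). P-values were adjusted by Benjamini-Hochberg over 17482 genes at a threshold of 0.05. The standard error was the log2 fold change divided by the square root of F; 95% intervals use the moderated degrees of freedom. Alternatives, including DESeq2 1.42.0, were tried. The code was tested on simulated data. Chi-square per degree of freedom was 3.37 for the controls and 11.5 for the other pair, so neither pair is the same library deposited again. Libraries of different groups were not compared in this way.

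Positions and lengths came from GENCODE M21, start windows from RefSeq. Members and lists were chosen with earlier results of these data known. All members are named; of each other list, the 3 called genes of smallest adjusted p, of which 1 gene is not reported here. No search for genes of like pattern was made, since 4 libraries in 2 groups give nearly 1 profile. Of the marker lists, the primed epiblast list had 4 of 7 tested genes higher and 1 lower, and the fibroblast list 1 of 3 lower.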

Additional observations from a re-analysis of the deposited data

How the results depend on the processing

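Of 110 pairs of a member and an alternative, 100 kept both the sign and the side of the threshold; 3 gained a call, 7 changed sign and 0 lost a call. The 3 gained calls were of Fgfr1 with scaling by library size alone, and of Spry2 and Spred1 without knockout replicate 1. Signs turned only for members near 0: with scaling by library size alone Dusp4 was at 0.0619, Etv4 at 0.0682 and Etv5 at 0.0664, and when genes needed 5 CPM in 2 libraries Etv4 and Etv5 were at 0.0033 and 0.0017. Leaving out 1 library moved Dusp4 between -0.081 and 0.0346 and Etv4 between -0.0336 and 0.0022. The number of members called higher was 2 with scaling by library size alone and 1 to 2 when a library was left out. Over all genes, 1915 to 2995 were higher when a library was left out. Other pathway genes called lower numbered 11 with library size alone, and leaving out a library gave 12 to 22 higher and 10 to 18 lower. The replicate number as a replicate block gave 3072 higher and 3216 lower genes and changed no member's call. Deviations of same-numbered libraries had a correlation of 0.008 over all genes tested. A single value over all genes cannot show whether same-numbered libraries share a batch that touches some genes. Leaving out a library leaves 1 sample in a group, which is assumed to vary like the other group. Yet the pair labelled KO differed more than the controls (chi-square per degree of freedom 11.5 against 3.37). Calls made without a knockout library may therefore come too easily. 2 libraries a group limit precision: standard errors of members ran from 0.06 to 0.11.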
